A study of Mus musculus with 4 samples.

Results

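Border-associated macrophages are the resident macrophages of the meninges, the perivascular spaces and the choroid plexus, and the genes described here are 10 that are used to mark them: Mrc1, Cd163, Lyve1, Cbr2, Stab1, Folr2, Ms4a7, Clec12a, Cd209f and Gas6. They were taken by symbol, and all 10 were found among the 32246 genes measured. RNA sequencing had been carried out on mononuclear cells of the spinal cord, isolated on a Percoll gradient from C57BL/6 mice with experimental autoimmune encephalomyelitis (EAE), a model of multiple sclerosis in which autoimmunity to myelin inflames the spinal cord. The P155 group (2 libraries, numbered 4 and 5) came from EAE mice treated with microPEP155, a micropeptide encoded by the Mir155hg transcript. The Scr group (2 libraries, also numbered 4 and 5) came from EAE mice treated with a scrambled micropeptide. Both treatments were given every other day starting on day 8 after immunization, so every library comes from diseased animals. The labels state neither the age nor the sex of the mice, nor whether a library came from 1 mouse or from several, so p-values measure only the spread between these libraries, which may be technical.

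These macrophages lie between blood vessels, cerebrospinal fluid and the parenchyma, where they take up debris, glycoproteins and haemoglobin through scavenger receptors and C-type lectins. They differ from microglia in their position and in carrying CD206, the protein of Mrc1. Several of the genes are not exclusive to them: monocytes and dendritic cells also carry CLEC12A, monocyte-derived macrophages carry MS4A7, lymphatic endothelium carries LYVE1, and many stromal and neural cells make GAS6.

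P155 replicates 4 and 5 held 63862745 and 30777553 reads as recovered from the table, and Scr replicates 4 and 5 held 63875412 and 64702948. P155 replicate 5 therefore carried the most counting error. Scr replicate 5 stood apart in the share of reads from mitochondrial genes, at 12.05%, against 8.54% to 9.68% in the other libraries. Neural transcripts were abundant in a preparation labelled as mononuclear cells: Mbp, the myelin basic protein gene, stood between 16.02 and 16.75 on the log2(normalized reads + 1) scale in the 4 libraries. All levels below are on this scale unless another is named, and all differences are P155 minus Scr in log2 units. In this bulk RNA, fewer cells of a type and less RNA per cell cannot be told apart.

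The 10 genes did not share 1 direction. Clec12a, Ms4a7 and Stab1 stood lower in both P155 libraries than in both Scr libraries, by 0.90 to 1.38 log2 units. Lyve1 and Cd163 stood higher in both P155 libraries, by 0.90 and 0.28. Mrc1, Gas6, Cbr2, Folr2 and Cd209f overlapped between the groups. No gene passed the test across all genes (limma, 0 of 27079 tested, or 0%, at an adjusted p under 0.05; 1179 genes at an unadjusted p under 0.05 and 1072 by limma-voom, which also called 0). The smallest adjusted p among the 10 genes was 0.861 by limma. At an unadjusted p under 0.05 were 3 of the 10 genes in the lower direction, where 3.18% of all tested genes were, and 0 in the higher direction, where 1.17% were. With the replicate numbers as a block or with a pseudocount of 0.1, only Clec12a and Ms4a7 were left under 0.05 in the lower direction. Each library was also left out in turn, which leaves a lone library in its group. The differences then ran from -1.61 to -0.92 for Clec12a, from -1.85 to -0.91 for Ms4a7 and from -1.24 to -0.57 for Stab1. The pair of P155 libraries lay below the pair of Scr libraries for 3 of the 10 genes, against 19.6% of all tested genes, and above them for 2, against 15.2%. The median difference of the 10 genes was -0.09, beside -0.03 for all genes tested.

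**Figure D1:**
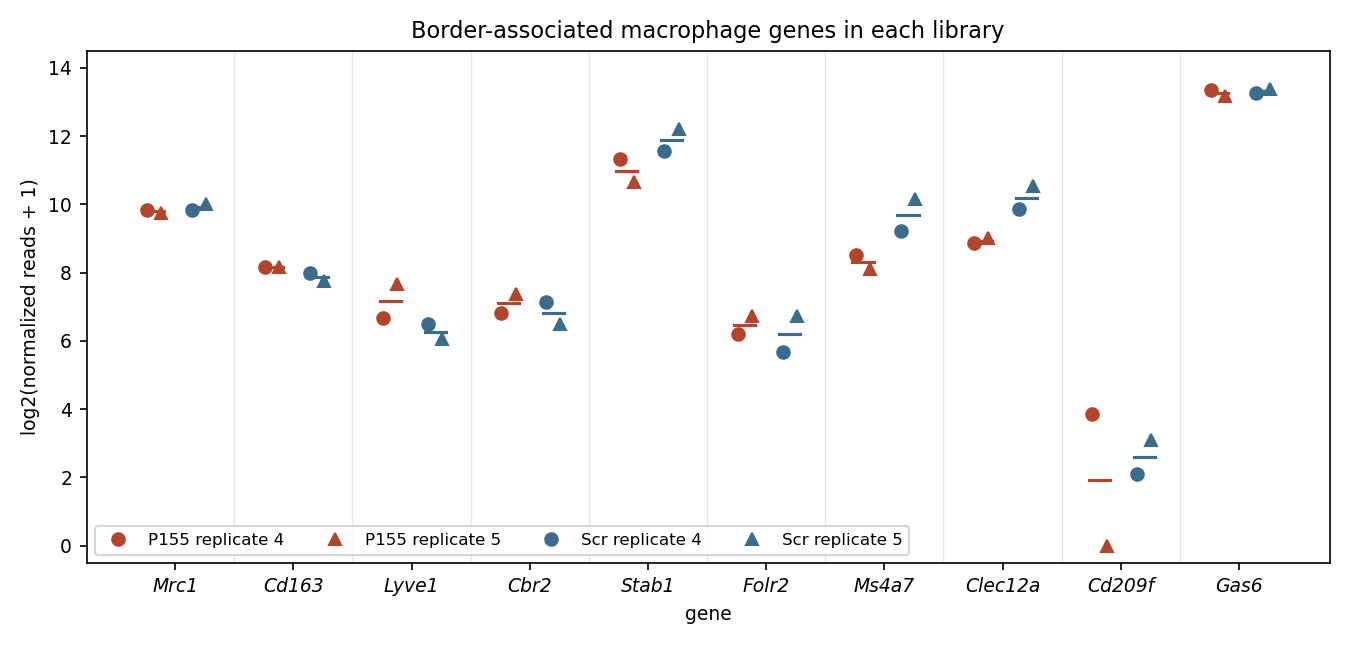
Level of each of the 10 genes in each library, as log2(normalized reads + 1) on the vertical axis. P155 libraries are red and stand left of the blue Scr libraries, circles are replicate 4, triangles are replicate 5, and short lines are group means of 2 libraries. Clec12a, Ms4a7 and Stab1 are lower in both P155 libraries, Lyve1 and Cd163 are higher, and Cd209f is at 0 in P155 replicate 5.

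The lower genes encode a lectin, a tetraspan protein and a scavenger receptor. Clec12a (ENSMUSG00000053063, chromosome 6, 129342691 to 129365303, plus strand, mm10) encodes an inhibitory C-type lectin receptor that binds uric acid crystals released by dead cells. It stood at 8.86 and 9.001 in P155 replicates 4 and 5, against 9.86 and 10.54 in Scr replicates 4 and 5. The groups did not overlap, and the P155 libraries lay close together while Scr replicate 5 was the highest. The difference was -1.27 (SE 0.29, 95% interval -2.03 to -0.50, limma adjusted p = 0.861). Ms4a7 (ENSMUSG00000024672, chromosome 19, 11321039 to 11336146, minus strand) encodes a membrane-spanning protein of the MS4A family found on macrophages. It stood at 8.52 and 8.10 in P155 replicates 4 and 5, against 9.22 and 10.16 in Scr replicates 4 and 5. Scr replicate 5 was again the highest and P155 replicate 5 the lowest. The difference was -1.38 (SE 0.39, 95% interval -2.41 to -0.35, limma adjusted p = 0.861).

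Stab1 (ENSMUSG00000042286, chromosome 14, 31139013 to 31168641, minus strand) encodes stabilin-1, a scavenger receptor for oxidized lipoproteins and apoptotic cells. It stood at 11.32 and 10.65 in P155 replicates 4 and 5, against 11.57 and 12.19 in Scr replicates 4 and 5. The replicates numbered 4 lay near each other, and most of the distance between the groups came from the replicates numbered 5. The difference was -0.90 (SE 0.33, 95% interval -1.78 to -0.03, limma adjusted p = 0.861). Without P155 replicate 5 it was -0.57, and without Scr replicate 5 it was -0.59. The corresponding values without Scr replicate 5, the library with the highest mitochondrial share, were -0.92 for Clec12a and -0.91 for Ms4a7, and the part of that share in these values was not tested. Exons of Stab1 and of Nt5dc2, a gene on the opposite strand, share up to 112 bases, and reads there cannot be told apart without strand.

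The authors' deposited table called Clec12a and Ms4a7 lower in P155, with an FDR of 0.00286 and 0.0287. That is 2 of the 10 genes, where the authors' deposited table called 0.36% of its 32246 genes lower and 0.171% higher. Such calls were not particular to the 10 genes. Of the 10 pan-leukocyte genes described below, Rac2 and Arhgdib were also called lower there, with an FDR of 3.95e-04 and 0.00339. Called lower as well were Ccr2, Csf3r, Cd79a, Col1a1, Cldn5 and F13a1, from other lists described below. Stab1 had an FDR of 0.254 in the authors' deposited table, and none of the 10 genes was called higher there. The submitters' processing notes list DESeq2, but the deposited table does not name the test behind its FDR, and limma on the same values did not call these genes.

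The 250 bases upstream of the start sites are shown for Ms4a7 and Stab1, from among the lower genes, and for Gas6, whose groups overlapped, so that their promoters can be read side by side. The sequences are RefSeq's for build GRCm38.p6, written in the direction of transcription. The hexamer GAGGAA, the core of the purine-rich box bound by the macrophage factor PU.1, was searched on both strands and is in capitals. The window of Ms4a7 is chr19:11336147-11336396, that of Stab1 chr14:31168642-31168891 and that of Gas6 chr8:13494536-13494785, all on the minus strand.
Ms4a7: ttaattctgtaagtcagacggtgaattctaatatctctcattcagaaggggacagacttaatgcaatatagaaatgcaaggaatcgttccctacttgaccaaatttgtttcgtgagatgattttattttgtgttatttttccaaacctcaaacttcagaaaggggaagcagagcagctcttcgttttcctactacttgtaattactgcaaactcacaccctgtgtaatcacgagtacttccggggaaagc
Stab1: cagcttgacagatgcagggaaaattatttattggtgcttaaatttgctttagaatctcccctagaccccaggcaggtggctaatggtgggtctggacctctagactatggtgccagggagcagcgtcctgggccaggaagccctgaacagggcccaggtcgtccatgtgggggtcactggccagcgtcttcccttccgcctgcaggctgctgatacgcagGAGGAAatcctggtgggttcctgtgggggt
Gas6: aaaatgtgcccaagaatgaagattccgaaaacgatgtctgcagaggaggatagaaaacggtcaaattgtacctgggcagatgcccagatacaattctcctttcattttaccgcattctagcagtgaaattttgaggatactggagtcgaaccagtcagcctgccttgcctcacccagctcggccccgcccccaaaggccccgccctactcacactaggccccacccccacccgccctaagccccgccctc

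Stab1 held 1 match and the windows of Ms4a7 and Gas6 held 0. Of the 9 genes with a window in the table, 4 held the hexamer on either strand, the others being Clec12a, Cbr2 and Mrc1. The windows of Clec12a, Cbr2 and Mrc1 each overlap 1 annotated exon, so their sequences are not shown. That of Clec12a, chr6:129349994-129350243, lies inside the span given above for the gene. The hexamer was present in 23.1% of 27025 windows of the same length over all genes. The gene of PU.1 itself, Spi1, stood at 9.98 and 9.62 in P155 replicates 4 and 5, against 10.21 and 10.72 in Scr replicates 4 and 5 (difference -0.67, SE 0.26, limma adjusted p = 0.861).

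The endocytic receptors Mrc1 and Cd163 were not among the lower genes. Mrc1 (ENSMUSG00000026712, chromosome 2, 14229392 to 14332057, plus strand) encodes the mannose receptor CD206, which internalizes mannosylated glycoproteins. It stood at 9.85 and 9.74 in P155 replicates 4 and 5, against 9.82 and 10.02 in Scr replicates 4 and 5. The groups overlapped, and all 4 libraries lay within a narrow range. The difference was -0.13 (SE 0.18, 95% interval -0.61 to 0.36, limma adjusted p = 0.906). Cd163 (ENSMUSG00000008845, chromosome 6, 124304656 to 124330527, plus strand) encodes the receptor that clears complexes of haemoglobin and haptoglobin. It stood at 8.15 and 8.16 in P155 replicates 4 and 5, against 8.002 and 7.75 in Scr replicates 4 and 5. Both P155 libraries lay above both Scr libraries, with Scr replicate 5 the lowest. The difference was 0.28 (SE 0.25, 95% interval -0.38 to 0.95, limma adjusted p = 0.861).

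Lyve1 (ENSMUSG00000030787, chromosome 7, 110850607 to 110863239, minus strand) encodes a receptor for hyaluronan, the glycosaminoglycan of the extracellular matrix. It stood at 6.68 and 7.66 in P155 replicates 4 and 5, against 6.49 and 6.04 in Scr replicates 4 and 5. Both P155 libraries were higher, P155 replicate 5 by far the most. The difference was 0.90 (SE 0.47, 95% interval -0.35 to 2.15, limma adjusted p = 0.861), and it was 0.41 without P155 replicate 5. These levels rest on 120 and 119 reads in P155 replicates 4 and 5, and on 109 and 77 reads in Scr replicates 4 and 5. Of the lymphatic endothelial genes, which mark another source of Lyve1, Prox1, a transcription factor also made by neural cells, stood at 11.19 and 10.73 in P155 replicates 4 and 5, against 11.004 and 10.84 in Scr replicates 4 and 5. In that list of 6 genes, 4 were lower and 2 higher in P155, with a median difference of -0.23, and their summed level, as log2 of the summed normalized reads, was 12.94 to 13.35 in P155 and 12.82 to 13.21 in Scr, with no gene at 0. That sum came mostly from Reln, Prox1 and Pdpn, with Reln between 11.02 and 12.50 in the 4 libraries. Ccl21a, between 4.76 and 5.84, added little to it. So did Mmrn1, at 2.13 and 5.05 in P155 replicates 4 and 5, against 6.50 and 4.29 in Scr replicates 4 and 5. The sum is therefore not a measure of lymphatic endothelium alone, and the part of lymphatic endothelial cells in the Lyve1 values was not tested.

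Folr2, Cbr2 and Cd209f were measured with few reads and overlapped between the groups. Folr2 (ENSMUSG00000032725, chromosome 7, 101839988 to 101857194, minus strand), the folate receptor of macrophages, stood at 6.20 and 6.72 in P155 replicates 4 and 5, against 5.69 and 6.72 in Scr replicates 4 and 5. The replicates numbered 5 were the same and Scr replicate 4 was the lowest. The difference was 0.26 (SE 0.51, 95% interval -1.09 to 1.60, limma adjusted p = 0.936). Its exons share up to 474 bases with genes annotated on the opposite strand, and reads there cannot be told apart without strand. Cbr2 (ENSMUSG00000025150, chromosome 11, 120729489 to 120732114, minus strand), a carbonyl reductase, stood at 6.82 and 7.38 in P155 replicates 4 and 5, against 7.13 and 6.49 in Scr replicates 4 and 5. The P155 libraries had the highest value and a value between those of Scr. The difference was 0.29 (SE 0.41, 95% interval -0.79 to 1.37, limma adjusted p = 0.902).

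Cd209f (ENSMUSG00000051906, chromosome 8, 4102787 to 4105835, minus strand) belongs to the family of the lectin DC-SIGN. It had 16 and 0 reads in P155 replicates 4 and 5, against 4 and 9 reads in Scr replicates 4 and 5. The P155 libraries held both the highest and the lowest count. A count of 0 in P155 replicate 5 allows up to 3 reads, or 5.06 normalized reads, for counting error only. The difference of -0.67 (SE 1.46, limma adjusted p = 0.941) cannot be told from 0 at this depth, and reads of the closely related Cd209 genes may be split among copies.

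Gas6 (ENSMUSG00000031451, chromosome 8, 13465374 to 13494490, minus strand) encodes the secreted ligand that bridges phosphatidylserine on dying cells to TAM receptor kinases. It stood at 13.35 and 13.19 in P155 replicates 4 and 5, against 13.26 and 13.37 in Scr replicates 4 and 5. The groups overlapped, and the 4 libraries lay closer together than for any other of the 10 genes, Mrc1 being next. The difference was -0.05 (SE 0.15, 95% interval -0.45 to 0.35, limma adjusted p = 0.964).

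**Figure D2:**
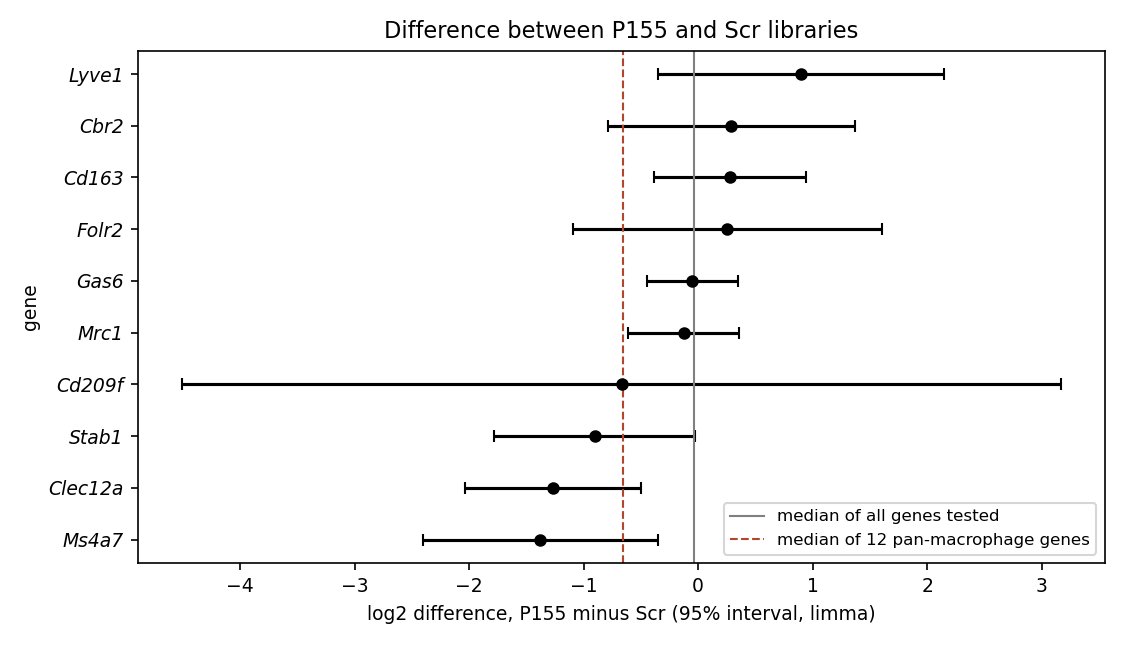
Difference between P155 and Scr for each of the 10 genes on the horizontal axis, in log2 units. Points are limma estimates and bars are their 95% intervals, with vertical lines at the median of all genes tested (-0.03) and of 12 pan-macrophage genes (-0.66). The intervals of Ms4a7, Clec12a and Stab1 lie below 0, and those of the other genes include 0.

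Between genes, levels can be compared only per length. In normalized reads per kilobase of merged exon, averaged over the 4 libraries, Gas6 had 3942, Stab1 289, Clec12a 153, Mrc1 146, Ms4a7 133, Cbr2 95.3, Folr2 53.7, Cd163 47.5, Lyve1 39.1 and Cd209f 3.06. Gas6 stood apart at the top, between 3657 and 4163 per kilobase in the single libraries, and Cd209f at the bottom, between 0 and 6.79. Between these ends the order is not firm: Clec12a ranged over 84.1 to 269.5 per kilobase and Mrc1 over 134.1 to 162.5, and Folr2, Cd163 and Lyve1 overlapped one another. The order also differed between the groups, since Mrc1 had 144 and 134 per kilobase in P155 replicates 4 and 5, above the 84.1 and 92.5 of Clec12a there. In Scr replicates 4 and 5 Mrc1 had 142 and 162 per kilobase, below the 168 and 269.5 of Clec12a. No test of that change of order was made.

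By the Euclidean distance between their log2 deviations over the 4 libraries, the nearest pairs of the 10 genes were Mrc1 with Gas6 (distance 0.10), Cd163 with Gas6 (0.44) and Ms4a7 with Clec12a (0.44). Among 17110 genes with a mean of at least 50 normalized reads, Fbl, Whamm, Ccdc82, Cndp2 and Axin2 lay nearest to the mean profile of the 10 genes, at distances of 0.02 to 0.04. With only 4 libraries this likeness is a description. That mean profile was 0.02 and -0.28 in P155 replicates 4 and 5, against -0.03 and 0.30 in Scr replicates 4 and 5. The replicates numbered 4 were nearly equal in it. Much of this pattern comes from Cd209f, at 3.86 and 0 in P155 replicates 4 and 5, against 2.09 and 3.10 in Scr. On 0 to 16 reads, Cd209f spread more than any other of the 10 genes and drew the mean with it. The profile and the genes nearest to it therefore do not describe the 10 genes evenly. No profile without Cd209f was made.

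Other genes of border-associated macrophages leaned lower in P155 without passing the test. Of 25 further genes listed, 24 were in the table and tested, 20 lower and 4 higher, with a median difference of -0.47 beside -0.03 for all genes tested. That lean was not particular to this list. The lists of other immune cells described below had medians from -0.41 (dendritic cells) to -1.36 (neutrophils). Pan-macrophage genes lay at -0.66 and pan-leukocyte genes at -0.85 among them. The pair of P155 libraries lay below the Scr pair for 10 of the 24 genes, against 19.6% of all tested genes, and above them for 2, against 15.2%, and limma called 0 of them. Their median difference was -0.24 without P155 replicate 5, -0.30 without Scr replicate 5 and -0.83 without Scr replicate 4. F13a1, the coagulation factor XIII subunit made by tissue macrophages, stood at 9.70 and 9.80 in P155 replicates 4 and 5, against 10.50 and 10.60 in Scr replicates 4 and 5. The replicates of each group lay close together, with a difference of -0.80 (SE 0.17, limma adjusted p = 0.861). F13a1 was the only gene of the 24 that the authors' deposited table called, with an FDR of 6.13e-04. Timd4, a receptor for phosphatidylserine on long-lived resident macrophages, stood higher, at 5.97 and 5.99 in P155 replicates 4 and 5, against 4.53 and 4.57 in Scr replicates 4 and 5 (difference 1.43, SE 0.43, limma adjusted p = 0.861). In each library Timd4 lay below Folr2, so it too was measured with few reads. Ms4a4a, a neighbour of Ms4a7 in the MS4A family, stood at 5.91 and 5.69 in P155 replicates 4 and 5, against 6.63 and 7.24 in Scr replicates 4 and 5 (difference -1.14, SE 0.40, limma adjusted p = 0.861).

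Among the classical names of the same list, Pf4, a chemokine gene shared with platelets, differed by -1.18 (SE 0.54) and had its 2 P155 libraries below the Scr libraries. Siglec1, the sialoadhesin gene, differed by -0.79 (SE 0.69), with P155 replicate 4 at 8.96 and P155 replicate 5 at 7.05, against 8.52 and 9.07 in Scr replicates 4 and 5, so the groups overlapped. Of the lectin genes beside Cd209f, Cd209a differed by -1.13 (SE 0.51), Cd209d by -1.46 (SE 0.97) and Cd209g by -0.08 (SE 0.81). Cd209d and Cd209g stood between 0 and 3.36 in the 4 libraries, a level at which counting error is large.

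**Figure D3:**
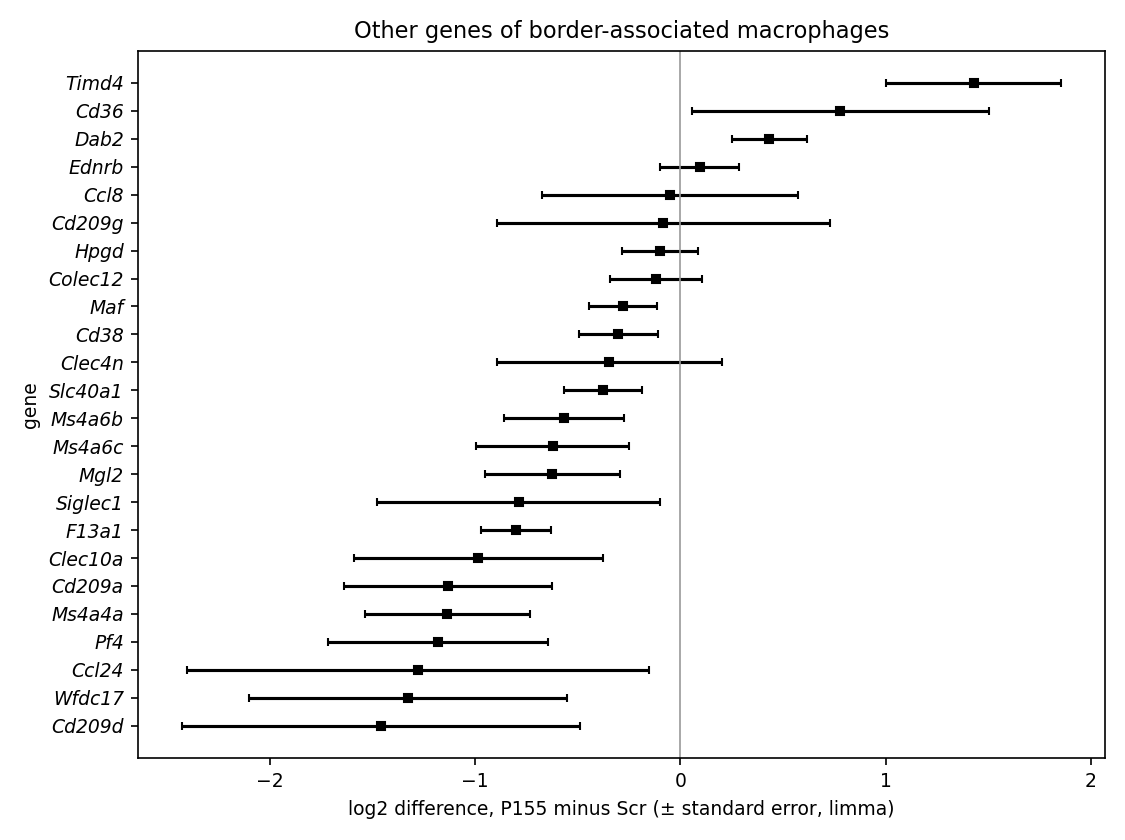
Difference between P155 and Scr for 24 other genes of border-associated macrophages on the horizontal axis, in log2 units. Points are limma estimates and bars are ± 1 standard error. Most points lie left of 0, with Timd4, Cd36, Dab2 and Ednrb to the right.

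Among the receptors for Gas6, Mertk and Axl had larger differences than Gas6 itself, none of which passed limma. Mertk, the TAM receptor of phagocytes that engulf apoptotic cells, stood at 11.19 and 10.58 in P155 replicates 4 and 5, against 11.35 and 12.08 in Scr replicates 4 and 5 (difference -0.83, SE 0.34, limma adjusted p = 0.861). Axl, the TAM receptor induced by inflammation, stood at 13.17 and 12.72 in P155 replicates 4 and 5, against 13.20 and 13.43 in Scr replicates 4 and 5 (difference -0.37, SE 0.22, limma adjusted p = 0.861). Tyro3, the TAM receptor of neural cells, differed by 0.08 (SE 0.16), and Pros1, which encodes the second TAM ligand protein S, by -0.22 (SE 0.21). Of the 6 genes of Gas6 receptors and the vitamin K cycle, 5 were lower and 1 higher, with a median of -0.14 and 0 called by limma. Leaving out Scr replicate 5 put that median at 0.003, and leaving out Scr replicate 4 put it at -0.47.

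For haemoglobin and haem, the cargo of CD163, all 6 genes were lower, with a median of -0.55, or -0.33 without Scr replicate 5, and 0 called by limma. Blvrb, a biliverdin reductase, stood at 9.55 and 9.41 in P155 replicates 4 and 5, against 10.11 in both Scr libraries (difference -0.63, SE 0.18, limma adjusted p = 0.861). Hmox1, the haem oxygenase that degrades haem, differed by -0.46 (SE 0.27), with no overlap between the groups. Hp, the haptoglobin gene, which neutrophils also express, differed by -1.38 (SE 0.83) but overlapped, at 7.52 and 9.68 in P155 replicates 4 and 5, against 10.55 and 9.41 in Scr replicates 4 and 5. The mean of the 10 neutrophil genes had the same order of libraries, although Csf3r and Retnlg among them did not, with mean deviations of -1.65 and 0.28 in P155 replicates 4 and 5, against 1.41 and -0.04 in Scr replicates 4 and 5. Their summed level was 13.08 and 14.91 in P155 replicates 4 and 5, against 16.06 and 14.57 in Scr replicates 4 and 5, with no gene at 0 in any library, and the part of neutrophils in the Hp values was not tested.

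Of the 8 genes of hyaluronan, the ligand of LYVE1, 5 were lower and 3 higher, with a median of -0.38, or -0.14 without P155 replicate 4 and -0.11 without Scr replicate 4. Cd44, the leukocyte receptor for hyaluronan, differed by -0.67 (SE 0.25), while the synthase Has3 differed by 0.65 (SE 0.25) and the hyaluronidase Hyal1 by 1.56 (SE 0.62), each with limma adjusted p = 0.861. The 4 folate genes beside Folr2 had a median of 0.15, which turned to -0.06 without P155 replicate 5 and to -0.01 without Scr replicate 4, and overlapped in every case, with the carriers Slc46a1 at 0.19 (SE 0.20) and Slc19a1 at 0.11 (SE 0.22) and the receptor Folr1 at 0.28 (SE 0.58). Of 8 other C-type lectin receptor genes, 6 were lower and 2 higher, with a median of -0.65, or -0.38 without Scr replicate 5. Clec9a, a dendritic cell receptor for exposed actin, differed by -1.62 (SE 0.52), Pla2r1 by -0.73 (SE 0.29) and Clec4a2 by -0.74 (SE 0.35). Limma called 0 genes of these lists.

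The 14 genes of macrophage growth factors and regulators were all lower, with a median of -0.62 and 0 called by limma. That median was -0.27 without P155 replicate 5 and -0.29 without Scr replicate 5. Besides Spi1, the transcription factor gene Stat6, which carries interleukin-4 signals that induce Mrc1, differed by -0.65 (SE 0.23), and Il10rb, a subunit of the interleukin-10 receptor, by -0.70 (SE 0.28). Csf1r, the receptor for the growth factor that sustains tissue macrophages, stood at 13.83 and 13.05 in P155 replicates 4 and 5, against 13.86 and 14.25 in Scr replicates 4 and 5 (difference -0.62, SE 0.32, limma adjusted p = 0.861).

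Most markers of other immune cells had a lower mean in P155, but not always in both P155 libraries, and limma called 0 of them. All 12 pan-macrophage genes had a lower mean in P155, with a median difference of -0.66, and Lyz2, Adgre1 and Fcer1g had the smallest p, with differences of -1.03, -0.68 and -0.93. Their summed level was 17.03 and 16.42 in P155 replicates 4 and 5, against 17.05 and 17.95 in Scr replicates 4 and 5. The replicates numbered 4 were thus nearly equal, as they were for Mrc1, and the replicates numbered 5 lay far apart, as they did for Ms4a7 and Stab1. The median was -0.34 without P155 replicate 5, -0.25 without Scr replicate 5, -1.01 without P155 replicate 4 and -1.01 without Scr replicate 4. All 10 infiltrating monocyte genes were lower (median -0.82), with Ccr2 at -1.29 and Plac8 at -0.93, and a summed level of 13.85 to 14.16 in P155 and 14.33 to 14.48 in Scr. Of 12 homeostatic microglia genes, 10 were lower (median -0.48, or -0.22 without P155 replicate 5 and -0.25 without Scr replicate 5). Gpr34 at -0.62, Cx3cr1 at -1.06 and Trem2 at -1.10 had the smallest p, and P2ry12 was at -0.83. Siglech at 0.47 and Slc2a5 at 0.46 were higher, Slc2a5 without overlap between the groups. Tmem119 at -0.19, Sall1 at -0.15 and Olfml3 at -0.20 overlapped. The summed level of the 12 genes was 15.08 to 15.29 in P155 and 15.39 to 16.01 in Scr. All 10 pan-leukocyte genes were lower in both P155 libraries than in both Scr libraries, against 19.6% of all tested genes. Their median was -0.85, or -0.51 without Scr replicate 5, with Rac2 at -0.96, Arhgdib at -1.05, Coro1a at -0.62 and Ptprc at -0.46, and a summed level of 14.45 to 15.05 in P155 and 15.31 to 15.86 in Scr. The groups did not overlap, with P155 the lower, for 5 of the 12 pan-macrophage, 7 of the 10 monocyte and 7 of the 12 microglia genes. No gene of these 4 lists was at 0 in any library, and the part of these cells in the values of Clec12a, Ms4a7 and Stab1 was not tested.

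Of 9 dendritic cell genes, 8 were lower (median -0.41, or -0.09 without P155 replicate 5, -0.03 without Scr replicate 5, -0.71 without P155 replicate 4 and -0.75 without Scr replicate 4), with Clec9a again first, Fscn1 at -0.71 and Cd24a at -0.41. Of 10 neutrophil genes, all had a lower mean in P155 (median -1.36), with Csf3r at -1.19, Retnlg at -1.70 and Ly6g at -1.44. Only Csf3r and Retnlg of these 10 were lower in both P155 libraries than in both Scr libraries, against 19.6% of all tested genes. The neutrophil median moved to -0.28 without P155 replicate 4, -0.51 without Scr replicate 4, -2.46 without P155 replicate 5 and -2.23 without Scr replicate 5. All 8 T and B cell genes were lower (median -1.25, or -0.64 without P155 replicate 5 and -0.72 without Scr replicate 5), with Ms4a1 at -1.28, Cd79a at -1.60 and Ighm at -0.50. The non-leukocyte lists stood nearer to the median of all genes. Meningeal fibroblasts had a median of -0.13, with Col1a1 at -0.94, Col1a2 at -0.64 and Slc22a6 at 0.70, and blood endothelium one of -0.18, with Cldn5 at -0.79, Slco1a4 at -0.22 and Pecam1 at -0.24. In lymphatic endothelium Mmrn1 was at -1.81, Reln at 0.56 and Ccl21a at -0.56. Neurons and glia had a median of 0.13, with Rbfox3 at 0.30, Snap25 at 0.19 and Nefl at 0.26. With each library left out in turn, the median ran from -0.40 to -0.01 for fibroblasts, without Scr replicate 4 and without Scr replicate 5, from -0.30 to 0.004 for blood endothelium, without P155 replicate 4 and without P155 replicate 5, and from 0.06 to 0.22 for neurons and glia, without Scr replicate 5 and without P155 replicate 5. That of lymphatic endothelium was -0.01 without P155 replicate 5.

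**Figure D4:**
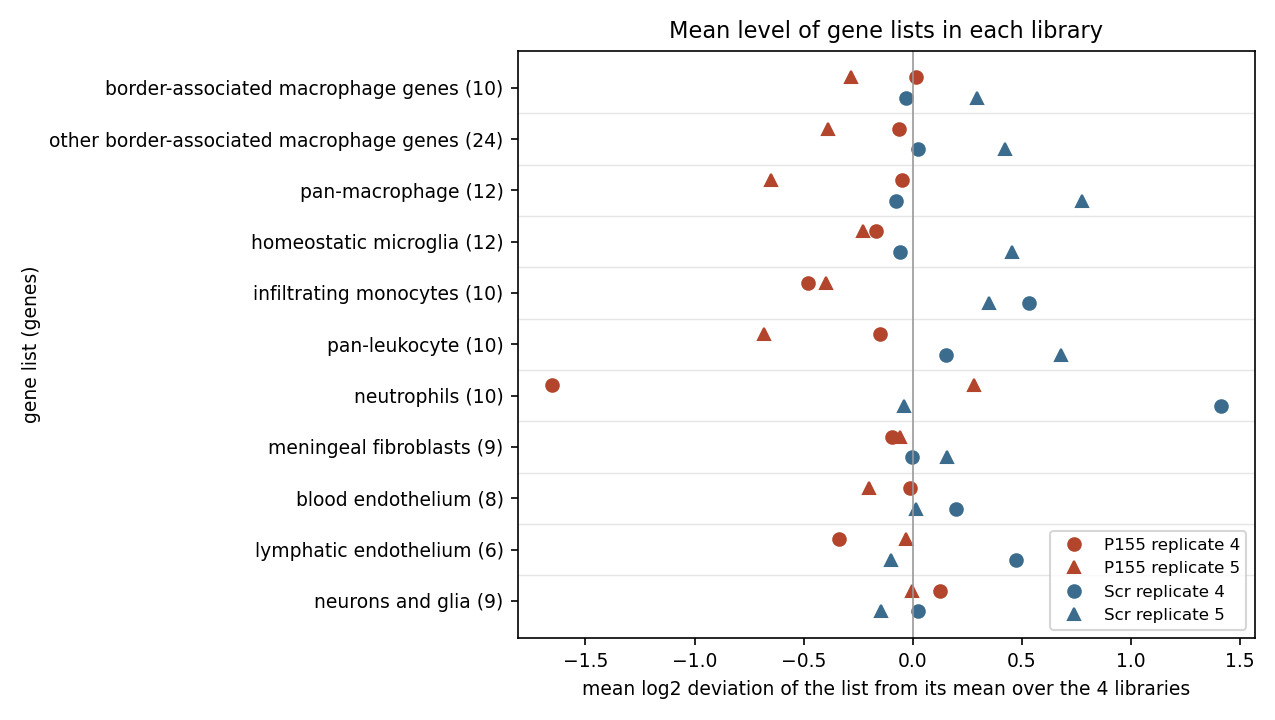
Mean log2 deviation of each gene list from its own mean over the 4 libraries, with the number of genes in brackets. P155 libraries are red and drawn above the blue Scr libraries, circles are replicate 4 and triangles are replicate 5. For the pan-macrophage genes the replicates numbered 4 lie at -0.05 in P155 and -0.08 in Scr, while the replicates numbered 5 lie at -0.65 in P155 and 0.77 in Scr. The row of the 10 border-associated macrophage genes is pulled by Cd209f, which is at 0 in P155 replicate 5.

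Set against the mean of the pan-macrophage genes in the same library, a scaling that puts the median of all genes tested at 0.66 instead of -0.03, Clec12a differed by -0.57, Ms4a7 by -0.68 and Stab1 by -0.20. On that scale Mrc1 differed by 0.57, Gas6 by 0.65, Folr2 by 0.95, Cd163 by 0.98, Cbr2 by 0.99 and Lyve1 by 1.60. None of these differences passed limma (adjusted p of 0.741 to 0.991 for the 10 genes, Cd209f at 0.03 included). Relative to the shifted median of all genes, Mrc1 and Gas6 stay close to it, as they do on the deposited scale. Set against the pan-leukocyte genes, which puts the median of all genes at 0.80, the differences were -0.43 for Clec12a, -0.55 for Ms4a7, -0.07 for Stab1, 0.70 for Mrc1, 1.11 for Cd163 and 1.73 for Lyve1, and limma again called 0 of the 10 genes (smallest adjusted p = 0.263).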

How the data were processed

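Per the labels' protocols, poly(A) RNA was selected and sequenced on an Illumina HiSeq. The authors used bcl2fastq, STAR 2.5.3a and DESeq2 with build mm10, per the submitters' processing notes; no read counter, annotation or strand setting is stated there. The deposited values are log2(normalized reads + 1), beside the authors' log2 fold change, p-value and FDR, whose test is not stated in that table. Whole reads were recovered from 100% of values (tolerance 1e-06), with size factors of 1.19 and 0.592 in P155 and 1.23 and 1.19 in Scr. The plan named a count model in case of raw counts; because the values are log2, limma 3.58.1 (R 4.3.3) with a variance trend was used. Genes with at least 1 normalized read in at least 2 libraries, 27079 in all, were tested (two-sided), with p-values adjusted by Benjamini-Hochberg over the whole set and a threshold of 0.05. Differences of low genes are understated by this scale.

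The members and lists were chosen with earlier results of these data known. Besides the members, the 3 genes of each of 18 lists with the smallest p (mean of at least 5 normalized reads) and preset partners were named. An item chosen by it is not reported here. Of the listed genes Cd209b was not matched in the table and was not analysed here. Itgam has 2 identifiers, of which the higher was used. Coordinates and exon lengths are from GENCODE M21, of the same build, which matched 32168 identifiers. The labels number the libraries 4 and 5 in each group without saying that a number marks a shared animal or batch. Alternatives were a replicate block, each library left out, scaling by library size, no filter, a stricter filter (mean of at least 50), a pseudocount of 0.1, a robust prior, limma-voom on recovered reads, and levels set against pan-leukocyte or pan-macrophage genes.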

Additional observations from a re-analysis of the deposited data

How the results depend on the processing

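Limma called 0 of the 10 genes under every alternative run. Scaling by library size, no filter, a pseudocount of 0.1, the robust prior and limma-voom kept the direction of every one of them, and so did the stricter filter for the 9 genes it tests. Leaving out 1 library, the lone library of its arm being assumed to vary like the other arm, gave 5 to 7 lower genes, 3 to 5 higher ones and a median of -0.24 to 0.00, with 0 called; across all genes 0 were called each time. Signs turned for 4 genes: the lowest and highest values were -0.26 and 0.77 for Folr2, -0.034 and 0.62 for Cbr2, -0.13 and 0.031 for Gas6, and -2.60 and 1.26 for Cd209f. Clec12a (-1.61 to -0.92), Ms4a7 (-1.85 to -0.91) and Stab1 (-1.24 to -0.57) kept theirs.

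Set against pan-leukocyte genes, 3 members were lower and 7 higher with a median of 0.74, Mrc1 turned to 0.70, Gas6 to 0.78 and Cd209f to 0.16, and 239 genes were called across all genes. Against pan-macrophage genes the members split 3 and 7 with a median of 0.61, Mrc1 turned to 0.57, Gas6 to 0.65 and Cd209f to 0.029, and 52 genes were called. Both scalings raise every gene by construction.

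The shared numbers do not pair the libraries by the labels, and the deviations of same-numbered libraries correlated by 0.07 across genes. With the replicate block, 0 genes were called (smallest adjusted p = 0.746), none of the 10 among them, with 6 of the 10 lower, 4 higher and a median of -0.09. TMM scaling and a count test, planned for a table of counts, were not run. The depth of P155 replicate 5 limits Cd209f, Lyve1, Folr2 and Cbr2, which rest on 0 to 119 reads there.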
